A study of Mus musculus with 18 samples.

Results

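The crossover and mismatch repair factors described here are 8 genes, Msh4, Msh5, Mlh3, Rnf212, Ccnb1ip1, Hfm1, Exo1 and Pms2, and their members on the array are the probe sets annotated to 1 of these genes alone. Such probe sets existed for 6 of the 8 genes, among 18193 genes annotated in this way over the whole array. Rnf212 and Hfm1 were not analysed here. The 6 genes had 11 of the array's 45037 probe sets, and 10 of the 11 passed the filter on low signal, which 34764 probe sets passed in all.

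Total RNA of whole testes was labelled and hybridised to Affymetrix arrays from 4 groups of mice. Mutants were homozygous for repro9 (repro9/repro9), an allele of Mybl1 made by chemical mutagenesis, and the controls were wild type (wt). At 14 days postpartum (dpp), an age the submitters chose for early and mid pachytene spermatocytes, there were 5 mutant and 3 wild-type arrays. At 17 dpp, chosen for late pachytene and diplotene spermatocytes, there were 5 arrays of each genotype. The allele is carried by every cell of the mutant. Strain is not stated, and since nothing says which arrays came from which animals, p-values measure the spread between arrays, which may be in part technical. In whole testis, fewer cells of a type and less RNA per cell cannot be told apart.

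Median signals lay between 88.7 and 149, and precision is limited by how many arrays there were. The arrays fell into 3 unlabelled sets by their β-actin controls, namely by the signal of the 3' probe set over that of the 5' probe set. Set 1 (7 arrays, ratio 2.31 to 2.92) held replicates 1 and 2 of each group except the wild type of 17 dpp, which had only replicate 1 in it. Set 2 (4 arrays, 1.45 to 1.49) held the other arrays of 14 dpp, and set 3 (7 arrays, 102.6 to 125.1) the other arrays of 17 dpp. Every set held both genotypes, so genotype differences are also given from a fit that has the array set as a block. Set 3 was not uniform. The same ratio of its GAPDH controls was 7.29 on wild-type replicate 4 and 9.59 and 5.24 on mutant replicates 3 and 4. On the other arrays of set 3 it was 13.5 to 18.5. Those replicates also had higher median signals (110, 118 and 130, against 88.7 to 97.8). The block does not take up this difference within set 3. The median log2 difference over all tested probe sets was 0.06 at 14 dpp and 0.25 at 17 dpp (0.11 with each array set to a common median). In wild type the median change from 14 to 17 dpp was −0.44 (−0.08 with each array set to a common median). The Mybl1 signal by its brighter probe set was lower in mutants at 17 dpp (167 against 1831; log2 difference −3.46 ± 0.45, SE, adjusted p = 5.25e-05). The position of that probe set with respect to the mutation is unknown here, so it does not check the labels.

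As background, crossovers form in pachytene spermatocytes from DNA double-strand breaks that are repaired on the homologous chromosome. Msh4 and Msh5, relatives of the bacterial MutS protein, form a meiotic clamp that stabilises recombination intermediates, and the helicase Hfm1 and the RING-domain proteins Rnf212 and Ccnb1ip1 (HEI10) help select which of them mature. Mlh3, a relative of the bacterial MutL protein, then acts as an endonuclease that marks and resolves crossovers. Exo1 is an exonuclease that acts in both pathways, and Pms2, another MutL relative, acts in the repair of mismatches in dividing cells. The product of Mybl1, A-MYB, is a germ cell transcription factor that binds DNA through the MYB core sequence.

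Because the mutated gene encodes a DNA-binding protein, upstream sequences of members with a tested probe set are shown 5′ to 3′ toward the gene. Msh4, Msh5, Mlh3 and Ccnb1ip1 act in meiosis, and Pms2 is a member whose signal moved the other way from Mlh3. The brighter Msh5 probe set also moved the other way. Each sequence is the 250 bases before 1 annotated RefSeq transcription start (build GRCm38.p6), and capitals mark the MYB core AACNG on either strand.
Msh4, chr3:153904892-153905141, minus strand: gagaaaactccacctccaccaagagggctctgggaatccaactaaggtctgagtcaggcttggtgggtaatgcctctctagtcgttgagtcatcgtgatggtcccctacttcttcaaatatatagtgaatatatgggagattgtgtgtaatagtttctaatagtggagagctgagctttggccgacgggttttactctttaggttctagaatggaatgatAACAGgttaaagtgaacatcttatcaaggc
Msh5, chr17:35046623-35046872, minus strand: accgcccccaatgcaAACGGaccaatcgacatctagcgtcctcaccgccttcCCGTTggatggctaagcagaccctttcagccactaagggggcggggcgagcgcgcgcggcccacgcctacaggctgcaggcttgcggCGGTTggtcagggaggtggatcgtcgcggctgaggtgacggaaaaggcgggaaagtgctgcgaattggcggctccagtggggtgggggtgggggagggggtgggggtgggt
Mlh3, chr12:85270592-85270841, minus strand: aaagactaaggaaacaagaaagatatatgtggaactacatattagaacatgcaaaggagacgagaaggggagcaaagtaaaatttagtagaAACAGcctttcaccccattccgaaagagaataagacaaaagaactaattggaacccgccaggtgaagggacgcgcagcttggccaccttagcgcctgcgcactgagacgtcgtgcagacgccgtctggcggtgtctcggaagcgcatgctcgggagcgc
Ccnb1ip1, chr14:50795729-50795978, minus strand: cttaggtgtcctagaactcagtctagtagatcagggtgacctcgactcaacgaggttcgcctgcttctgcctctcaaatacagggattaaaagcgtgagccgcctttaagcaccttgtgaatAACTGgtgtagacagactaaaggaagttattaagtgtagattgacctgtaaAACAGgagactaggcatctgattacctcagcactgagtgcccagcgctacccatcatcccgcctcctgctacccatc
Pms2, chr5:143909751-143910000, plus strand: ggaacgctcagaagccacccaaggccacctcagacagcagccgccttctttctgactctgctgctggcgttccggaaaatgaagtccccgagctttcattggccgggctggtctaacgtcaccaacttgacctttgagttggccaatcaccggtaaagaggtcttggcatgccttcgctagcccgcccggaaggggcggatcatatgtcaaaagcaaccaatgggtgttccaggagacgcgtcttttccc
Windows were found for 7 of the 8 genes, and no window of Exo1 is shown. The windows of Msh4 and Msh5 lay inside the annotated gene and those of Mlh3 and Pms2 partly so, because other transcripts start further upstream. The core was present upstream of 5 of the 7 genes, in 1 copy for Msh4, Mlh3 and Rnf212, in 2 for Ccnb1ip1 and in 3 for Msh5. No match was found in the windows of Hfm1 and Pms2. The longer motif TAACNG, which contains the core, was present for Msh4, 31 bases before the start, and for Ccnb1ip1. Of 32851 promoter windows of this length, 74.2% held AACNG and 19.8% held TAACNG, so a core in 5 of 7 genes is close to the share in promoters at large. A match is a run of letters and was not tested as a binding site.

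The first question was which of these factors differ between mutant and wild-type testes at 17 dpp, when the wild type reaches late pachytene. Mlh3 was 2.56-fold lower in mutants, while the brightest probe set of Pms2 was 2.20-fold higher. The brighter probe set of Msh5 was also higher, by 2.50 on the log2 scale, against a wild-type signal below the 40th percentile on 4 of 5 arrays, so that no fold is given. These were 3 of the 10 tested probe sets (2 higher and 1 lower), and 5.33% of all tested probe sets were called (1.48% higher and 3.86% lower, adjusted p under 0.05 by limma). With the array set as a block 6 of the 10 were called, 3 higher and 3 lower, beside 18.8% of all tested probe sets (10.8% higher and 8.05% lower). The 3 added by the block were Msh4 and Ccnb1ip1, both lower, and a dim Pms2 probe set, higher. Within set 1 alone 1 of the 10 was called, namely Mlh3 (2.85% of all), and within set 3 alone 6 were called (11.5% of all). At 14 dpp none of the 10 was called by limma, 1 had an unadjusted p under 0.05, and 0.196% of all tested probe sets were called.

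**Figure D1:**
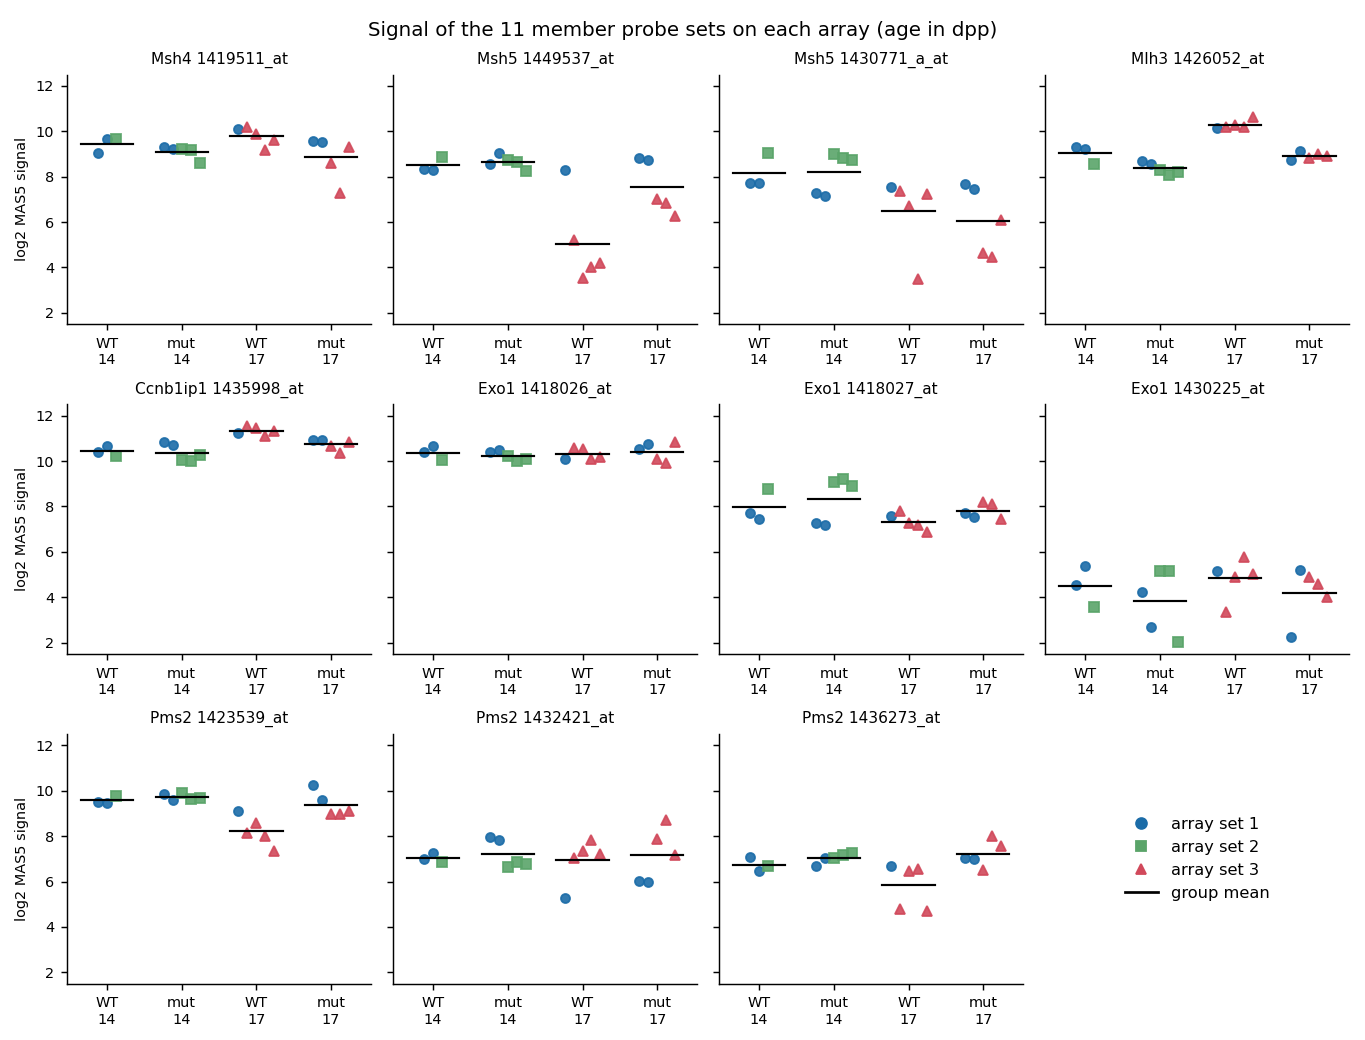
Log2 MAS5 signal (vertical axis) of the 11 probe sets of the 6 genes on each of the 18 arrays, by genotype and age in dpp. Each point is 1 array, its shape and colour give the array set and a bar marks the group mean; at 17 dpp all 5 mutant arrays of Mlh3 (422 to 566) and of Ccnb1ip1 (1325 to 1934) lie below all 5 wild-type arrays.

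Mlh3, the meiotic endonuclease, had the clearest difference of the 10 probe sets. Its only probe set (1426052_at, chromosome 12) gave signals of 1126, 1161, 1258, 1152 and 1572 in wild-type replicates 1 to 5 at 17 dpp and of 422, 566, 458, 509 and 485 in the mutants. All 5 mutant arrays lay below all 5 wild-type arrays, a separation downward that 3.31% of all tested probe sets showed. The geometric means were 1244 in wild type and 486 in mutants, a log2 difference of −1.36 ± 0.21 (adjusted p = 3.74e-04, 95% confidence interval −1.80 to −0.91).

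This difference of Mlh3 was of similar size in each array set. It was −1.34 ± 0.15 with the array set as a block (adjusted p = 4.56e-06). The arrays of set 1 alone, with 1 wild-type array of 17 dpp, gave −1.20, and those of set 3 alone gave −1.40 (adjusted p = 1.29e-04). Leaving out 1 array at a time gave adjusted p from 2.77e-04 to 0.00188. Without all arrays of set 3 the difference was −1.20 and did not pass (adjusted p = 0.0748).

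At 14 dpp Mlh3 gave 627, 599 and 381 in wild type and 415, 374, 318, 272 and 292 in mutants. The groups overlapped through mutant replicate 1 (415) and wild-type replicate 3 (381), which belong to sets 1 and 2. The geometric means of 523 and 330 differed by −0.66 ± 0.24, which did not pass the threshold (unadjusted it was the 1 probe set of the 10 with a p under 0.05), and the block gave −0.53 ± 0.17 (adjusted p = 0.652). With array weights it passed (log2 difference −0.92, adjusted p = 3.70e-04). The change of the genotype difference between the ages was −0.69 ± 0.32 and did not pass (adjusted p = 0.872), so the difference at 17 dpp is not shown to be larger than that at 14 dpp.

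In wild type Mlh3 rose 2.38-fold from 14 to 17 dpp (1.25 ± 0.24, adjusted p = 0.00432). With the block the rise was 1.03 (adjusted p = 0.00786), within set 1 it was 0.88 (adjusted p = 0.153), and without set 3 it was 1.11 (adjusted p = 0.0624). In mutants the change with age was 0.56 ± 0.21 and did not pass (adjusted p = 0.107). It was 0.21 with the block (adjusted p = 0.868), and it passed after quantile normalization (1.15, adjusted p = 0.0374) and with array weights (0.64, adjusted p = 0.0327). From the highest mean down, the order was wild type at 17 dpp, wild type at 14 dpp, mutants at 17 dpp and mutants at 14 dpp. Of the neighbours in this order, the first pair differed, the last pair (the ages in mutants) passed only in those 2 alternatives, and the middle pair was not tested.

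Pms2, the mismatch repair relative of Mlh3, moved the other way by its brightest probe set (1423539_at, chromosome 5). At 17 dpp the wild-type arrays gave 549, 286, 386, 259 and 165 and the mutant arrays 1217, 773, 510, 503 and 553. Wild-type replicate 1 (549), the only wild-type array of set 1 at this age, lay above mutant replicates 3 and 4 (510 and 503), and no other arrays overlapped. The geometric means were 304 and 668, a log2 difference of 1.14 ± 0.31 (adjusted p = 0.0344, 95% confidence interval 0.50 to 1.78).

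The block gave a similar difference for this Pms2 probe set, 0.94 ± 0.20 (adjusted p = 0.00336). Set 1 alone gave 0.82 ± 0.41 (adjusted p = 0.451), set 3 alone gave 0.99 ± 0.25 (adjusted p = 0.0199), and without set 3 the value was 0.82 (adjusted p = 0.116). The call ended when wild-type replicate 2 (adjusted p = 0.0752), 4 (0.0649) or 5 (0.11) or mutant replicate 1 (0.0917) or 2 (0.0796) was left out. On a common median, which lowers the median difference of all probe sets, the value was 0.99 and did not pass (adjusted p = 0.153). The difference therefore kept its direction throughout these fits but not its call.

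At 14 dpp the same probe set gave 727, 696 and 883 in wild type and 932, 763, 968, 796 and 830 in mutants, which overlapped (0.16 ± 0.35). In wild type its signal fell 2.52-fold with age (−1.33 ± 0.35, adjusted p = 0.018), while the block gave −0.52 (adjusted p = 0.325) and set 1 alone −0.37 (adjusted p = 0.794). This call of a fall with age also ended without wild-type replicate 1 (0.0655) or 3 (0.0775) of 14 dpp. In mutants the change with age was −0.35 ± 0.31 (adjusted p = 0.455). Wild type at 17 dpp was thus the lowest of the 4 groups (304), below mutants at 17 dpp (668), while the means at 14 dpp were 765 and 854.

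The other 2 Pms2 probe sets were dimmer. The probe set 1436273_at gave 102, 27.8, 89.2, 95.2 and 26.1 in wild type at 17 dpp, with 3 of 5 arrays above their own 40th percentile, and 130.4, 128, 90.2, 259 and 187 in mutants. Its difference of 1.37 ± 0.42 had the sign of the brightest probe set and did not pass (adjusted p = 0.0699). It passed with the block (1.33 ± 0.43, adjusted p = 0.038), within set 3 (1.72, adjusted p = 0.0393) and without wild-type replicate 1 (1.58, adjusted p = 0.0278) or 4 (1.55, adjusted p = 0.0454), and it was 0.34 within set 1 (adjusted p = 0.959). At 14 dpp it lay between 88.0 and 151 on all arrays (0.30 ± 0.49).

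The third Pms2 probe set, 1432421_at, followed the array sets more than the genotypes at 17 dpp. It gave 39.2 in wild type and 65.7 and 63.2 in mutants on the arrays of set 1, and from 131 to 417 on the 7 arrays of set 3. The genotype difference was 0.22 ± 0.54 (adjusted p = 0.874, 95% confidence interval −0.91 to 1.35) and 0.61 ± 0.29 with the block (adjusted p = 0.159). At 14 dpp its geometric means were 132 in wild type and 148 in mutants. The changes with age, near 0 over all arrays (−0.10 in wild type and −0.05 in mutants), were −1.96 (adjusted p = 0.00973) and −1.74 (adjusted p = 0.0338) with the block.

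**Figure D2:**
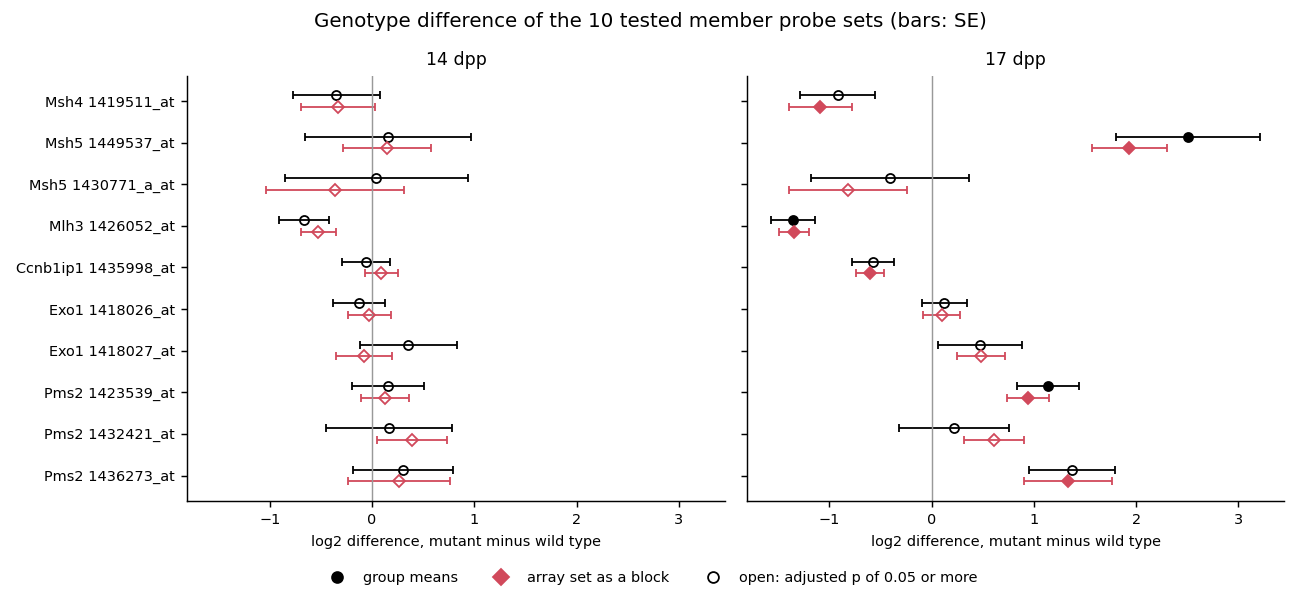
Log2 difference, mutant minus wild type, of the 10 tested probe sets at 14 dpp and at 17 dpp on a shared horizontal axis, with bars of 1 SE. Circles are differences of group means and diamonds those with the array set as a block, filled where the adjusted p was under 0.05; at 17 dpp Mlh3 (−1.36) lies to the left and Msh5 1449537_at (2.50) and Pms2 1423539_at (1.14) to the right, and at 14 dpp no symbol is filled.

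Msh4 and Msh5 are the partners of the meiotic clamp. At 17 dpp the only Msh4 probe set was lower in mutants, without passing, and the Msh5 probe set brighter over all arrays was higher. In wild type at 17 dpp that Msh5 probe set was the dimmer one (32.9 against 89.0). The other Msh5 probe set had the sign of Msh4 (−0.41), and the 2 genes were not tested against each other. Msh4 (1419511_at, chromosome 3) gave 1089, 1149, 949.8, 572 and 783 in wild type and 758, 747, 393, 157 and 627 in mutants. Wild-type replicate 4 (572) lay within the mutant range, and the other 4 wild-type arrays lay above every mutant array. The geometric means of 882 and 466.0 differed by −0.92 ± 0.37, which did not pass (adjusted p = 0.171, 95% confidence interval −1.69 to −0.15).

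The block fit gave −1.09 ± 0.31 for Msh4, which passed (adjusted p = 0.0203). The lowest Msh4 signals of set 3 were those of wild-type replicate 4 (572) and mutant replicates 3 and 4 (393 and 157). These are the arrays of set 3 with the lowest GAPDH ratios. The block leaves this difference between arrays in, and its part was not tested. Set 1 alone gave −0.53 (adjusted p = 0.867) and set 3 alone −1.30 ± 0.37 (adjusted p = 0.0328). Without set 3 the value was −0.53 (adjusted p = 0.425). At 14 dpp Msh4 gave 524, 797 and 816 in wild type and 633, 589, 596, 579.6 and 383 in mutants, with overlap and a difference of −0.35 ± 0.42. The means at 14 dpp were 698 and 548, between those of 17 dpp. Neither age difference passed, with 0.34 ± 0.42 in wild type (adjusted p = 0.599) and −0.23 ± 0.37 in mutants (adjusted p = 0.705).

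Msh5, on chromosome 17, was measured by 2 probe sets that gave different pictures at 17 dpp. The brighter one by its mean, 1449537_at, gave 311 on wild-type replicate 1 and 36.65, 11.61, 16.03 and 18.25 on replicates 2 to 5, and 458, 430.5, 130, 115 and 77.2 on the mutant arrays. The groups overlapped through that 1 wild-type array. Only wild-type replicate 1 lay above its array's 40th percentile, and this is the wild-type array of set 1, whereas all 5 mutant arrays did. The geometric means of 32.9 and 187 differed by 2.50 ± 0.71 (adjusted p = 0.0451, 95% confidence interval 1.02 to 3.99). Since 4 of the wild-type arrays lay below that percentile, the size of this difference depends on the background. On set 1, where both genotypes lay above it, the mutant signal was 1.43-fold that of wild type.

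The direction of this Msh5 difference was the same in both array sets, and its size was not. With the block it was 1.93 ± 0.37 (adjusted p = 0.00129) and within set 3 it was 2.48 ± 0.37 (adjusted p = 3.67e-04). Within set 1, where 311 in wild type stood against 458 and 430.5 in mutants, it was 0.51 ± 0.59 (adjusted p = 0.874). The call of the group means was lost when any 1 of 15 of the 18 arrays was left out (highest adjusted p 0.129, when this was replicate 5 of the wild type of 17 dpp), and in 7 of 14 other settings, among them without set 3 (0.51, adjusted p = 0.457), a common median (2.36, adjusted p = 0.0839) and a pseudocount of 16 (adjusted p = 0.0636). Without wild-type replicate 1 of 17 dpp the adjusted p was lowest, 2.57e-04.

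The other Msh5 probe set, 1430771_a_at, whose suffix marks probes shared by alternative transcripts of 1 gene, showed no such rise. It gave 186, 166, 106, 11.2 and 152 in wild type at 17 dpp and 205, 177, 25.1, 21.8 and 68.0 in mutants, and the groups overlapped. The geometric means of 89.0 and 67.0 differed by −0.41 ± 0.77 (adjusted p = 0.824, 95% confidence interval −2.04 to 1.22). The block gave −0.82 ± 0.58 (adjusted p = 0.347), set 1 alone 0.04 and set 3 alone −1.15 ± 0.71 (adjusted p = 0.312).

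Because both probe sets were read on the same arrays, their ratio shows whether they changed unequally. At 17 dpp the mean log2 ratio of 1449537_at to 1430771_a_at was 1.48 in mutants (SD 0.93, n = 5) and −1.43 in wild type (SD 1.93, n = 5). The difference of 2.91 had an exact two-sided permutation p of 0.0238, where the smallest this design allows is 0.00794. After adjustment over the 10 such tests this p was 0.238 and did not pass. A lone pair at the smallest p would not have passed either. On set 1 the ratio was 0.74 in wild type and 1.22 in mutants, and on set 3 it averaged −1.98 in wild type (from −3.19 to 0.52) and 1.65 in mutants (from 0.18 to 2.40). At 14 dpp the difference in ratio was 0.11 (exact permutation p = 0.929). The gap between genotypes in this ratio lay mostly on the set 3 arrays. There 1449537_at was below the 40th percentile on all 4 wild-type arrays, and 1430771_a_at was below it on wild-type replicate 4 (11.2) and mutant replicates 3 and 4 (25.1 and 21.8). The disagreement of the probe sets was known when the genes were chosen, so the ratios are a description, and the p-values are no independent evidence.

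At 14 dpp both Msh5 probe sets overlapped between genotypes. The probe set 1449537_at gave 319.9, 316 and 472 in wild type and 379, 534, 425, 405 and 307.5 in mutants (0.15 ± 0.81), and 1430771_a_at gave 209.8, 212 and 531 in wild type and 157, 144, 512, 459 and 421 in mutants (0.04 ± 0.89). For the second probe set the arrays of set 2 (421 to 531) lay above those of set 1 (144 to 212) in both genotypes. With age 1449537_at fell in wild type (log2 change −3.46 ± 0.81, adjusted p = 0.0114), onto signals below the 40th percentile on 4 of 5 arrays, so that this is no measured fold. That fall was −1.16 with the block (adjusted p = 0.214) and −0.03 within set 1 (adjusted p = 0.992), and it did not pass without wild-type replicate 3 of 14 dpp (−3.27, adjusted p = 0.0571). In mutants the change with age was −1.11 for 1449537_at (adjusted p = 0.299) and −2.14 for 1430771_a_at (adjusted p = 0.0972), and neither passed. With the block these changes were 0.63 and −0.004, and within set 1 they were −0.02 and 0.34, so the falls were not seen in these fits. With array weights both passed (−1.46, adjusted p = 0.0242, and −2.95, adjusted p = 0.00254), and 1430771_a_at also passed without mutant replicate 1 (−2.54, adjusted p = 0.0356) or 2 (−2.49, adjusted p = 0.0432) of 17 dpp.

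**Figure D3:**
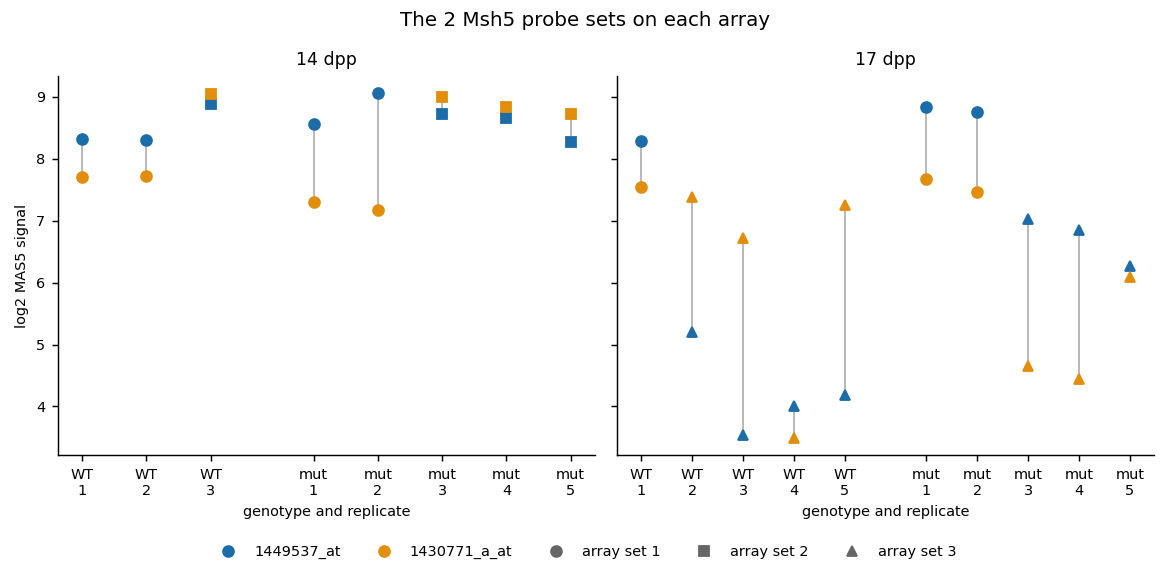
Log2 MAS5 signal of the Msh5 probe sets 1449537_at and 1430771_a_at on each array, at 14 dpp on the left and 17 dpp on the right, with the points of 1 array above each other and shapes for the array set. At 17 dpp the wild-type arrays of set 3 have low signals of 1449537_at (11.6 to 36.7), while wild-type replicate 1, of set 1, has 311.

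Ccnb1ip1, the RING-domain protein HEI10 that promotes crossover maturation, was the brightest member. Its probe set (1435998_at, chromosome 14) gave 2392, 2947, 2767, 2193 and 2552 in wild type at 17 dpp and 1934, 1924, 1634, 1325 and 1844 in mutants. All mutant arrays lay below all wild-type arrays, as for Mlh3. From the highest mean down, the order was wild type at 17 dpp, mutants at 17 dpp, wild type at 14 dpp (1377) and mutants at 14 dpp (1325). The geometric means of 2556 and 1715 differed by −0.58 ± 0.20, a 1.49-fold difference that did not pass (adjusted p = 0.119).

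With the array set as a block Ccnb1ip1 gave −0.60 ± 0.14 and passed (adjusted p = 0.00562), and within set 3 it gave −0.71 ± 0.16 (adjusted p = 0.0105). Within set 1 it was −0.31 (adjusted p = 0.77). At 14 dpp the arrays overlapped, with 1361, 1620.4 and 1184 in wild type and 1827, 1655, 1064, 1031 and 1229.6 in mutants (−0.06 ± 0.24). In wild type Ccnb1ip1 rose 1.86-fold with age (0.89 ± 0.24, adjusted p = 0.0178; block 0.81, adjusted p = 0.0208; set 1 alone 0.69, adjusted p = 0.217). That rise did not pass without wild-type replicate 1 (adjusted p = 0.07) or 3 (0.0819) of 14 dpp, and in mutants the change was 0.37 ± 0.20 (adjusted p = 0.226).

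Exo1, the exonuclease on chromosome 1, showed no genotype difference that passed in the comparison of group means or with the block. Its brightest probe set, 1418026_at, gave 1096, 1518, 1482, 1093 and 1165 in wild type at 17 dpp and 1487, 1723, 1089, 951 and 1816 in mutants. The groups overlapped at both ages, and the difference of 0.12 ± 0.22 (adjusted p = 0.809) had a 95% confidence interval of −0.34 to 0.59. At 14 dpp its signals were 1331, 1623 and 1071 in wild type and 1357.5, 1413, 1205, 1032 and 1092 in mutants (−0.13 ± 0.25). The 4 geometric means lay between 1211 and 1370, and no pair set against each other differed by a test that passed.

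A second Exo1 probe set, 1418027_at, gave 0.36 ± 0.48 at 14 dpp and 0.47 ± 0.41 at 17 dpp (adjusted p = 0.57, 95% confidence interval −0.39 to 1.34). The sign at 14 dpp was not stable. It was −0.08 with the block and −0.35 within set 1, whereas array weights gave 1.06 and passed (adjusted p = 0.027). At 14 dpp its signals split by array set, with 147 to 209.8 on set 1 and 440.3 to 591 on set 2, in both genotypes. At 17 dpp it gave 188, 219, 154, 143 and 117 in wild type and 211, 184, 289, 279.6 and 175 in mutants, with overlap. The third Exo1 probe set, 1430225_at, lay between 4.0 and 54.3 on all 18 arrays and above the 40th percentile on none, so it was not tested and gives no level.

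Across the 10 probe sets the change of the genotype difference between the ages passed for none by limma (2 had an unadjusted p under 0.05, and 0.204% of all tested probe sets were called). In wild type 4 of the 10 changed from 14 to 17 dpp, Mlh3 and Ccnb1ip1 up and Msh5 1449537_at and Pms2 1423539_at down, beside 21.4% of all tested probe sets (4.86% up and 16.5% down). With the block 3 of the 10 changed (7.63% of all), Mlh3 and Ccnb1ip1 up and another Pms2 probe set, 1432421_at, down. The block links the ages only through set 1, where wild type of 17 dpp has 1 array. Age changes from the block and from set 1 are therefore not separate evidence. The falls of Msh5 1449537_at and Pms2 1423539_at did not pass with the block. Set 3, with 4 of the 5 wild-type arrays of 17 dpp, had a trimmed mean of 394.6 to 394.9, against 500 on all arrays of 14 dpp. The median change of all probe sets in wild type was −0.44, and −0.08 on a common median. There the fall of Pms2 1423539_at did not pass (−0.97, adjusted p = 0.113), and that of Msh5 1449537_at kept its call. Within set 1, the only set with both ages, none of the 10 changed by limma (3 had an unadjusted p under 0.05, and 2.18% of all were called). In mutants none of the 10 changed with age by limma, 2 had an unadjusted p under 0.05, and 1.92% of all tested probe sets were called.

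Other genes of these pathways were taken from 4 lists, each gene by its brightest tested probe set. Over all 15307 genes the median difference at 17 dpp was 0.26, and 2.03% were called higher and 5.83% lower (14.4% and 11.4% with the block). With the block the median over all tested probe sets was 0.24. Of the other MutS and MutL relatives, 3 of 5 were tested and none passed at 17 dpp by limma (median −0.20). Msh3, which acts on larger mismatch loops, gave 1333 in wild type and 688 in mutants (−0.96 ± 0.30, adjusted p = 0.075), and passed with the block (−0.98, adjusted p = 0.0182). Msh6, which acts on single-base mismatches, gave −0.20 ± 0.25, and Pms1 gave 0.19 ± 0.28.

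Of 15 crossover cofactors 9 were tested, and 1 was called lower at 17 dpp and none higher (median 0.06). This was Meiob, a single-strand DNA-binding protein of meiosis, which fell from 2329 to 1142 (−1.03 ± 0.29, adjusted p = 0.0429; block −1.01, adjusted p = 0.00544). With the block 2 were lower, Meiob and Hsf2bp, which recruits recombinases through BRCA2 (−0.90, adjusted p = 0.0069), and 1 higher, Tex11, an X-linked crossover factor (0.61, adjusted p = 0.0104), with a list median of −0.45.

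All 16 genes of joint molecule resolution and dissolution were tested, and none was called at 17 dpp by limma (median 0.03). With the block 4 were lower and 1 higher (median −0.46, against 0.24 for all tested probe sets). Rmi1, a partner of the Blm helicase, had −0.98 (adjusted p = 9.96e-04), the nuclease scaffold Slx4 −0.81 (adjusted p = 0.038), Blm −0.43 (adjusted p = 0.0392) and Fancd2 −0.86 (adjusted p = 0.0326), while the helicase Brip1 had 0.92 (adjusted p = 0.0241). The same 5 genes without the block had −0.76, −0.41, −0.42, −0.42 and 1.09, in that order, and adjusted p from 0.0691 to 0.718.

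Of 15 genes of mismatch excision and resynthesis 13 were tested, and none was called by limma (median 0.38, against 0.26 for all genes). With the block the clamp loader subunit Rfc2 was lower (−0.74, adjusted p = 0.0175) and the subunits Rfc3 (0.64, adjusted p = 0.0453) and Rfc5 (0.49, adjusted p = 0.0278) were higher. At 14 dpp no gene of the 4 lists was called by limma, the medians ran from −0.15 to 0.09, and 0.32% of all genes were called. For 5 of the genes named above, 1 other tested probe set had the opposite sign at 17 dpp in the group means. These were Msh3 (3 probe sets tested), Hsf2bp (2), Fancd2 (4), Rfc2 (3) and Rfc3 (2). None of the lists was tested as a set, and the counts stand only beside the shares of all genes.

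**Figure D4:**
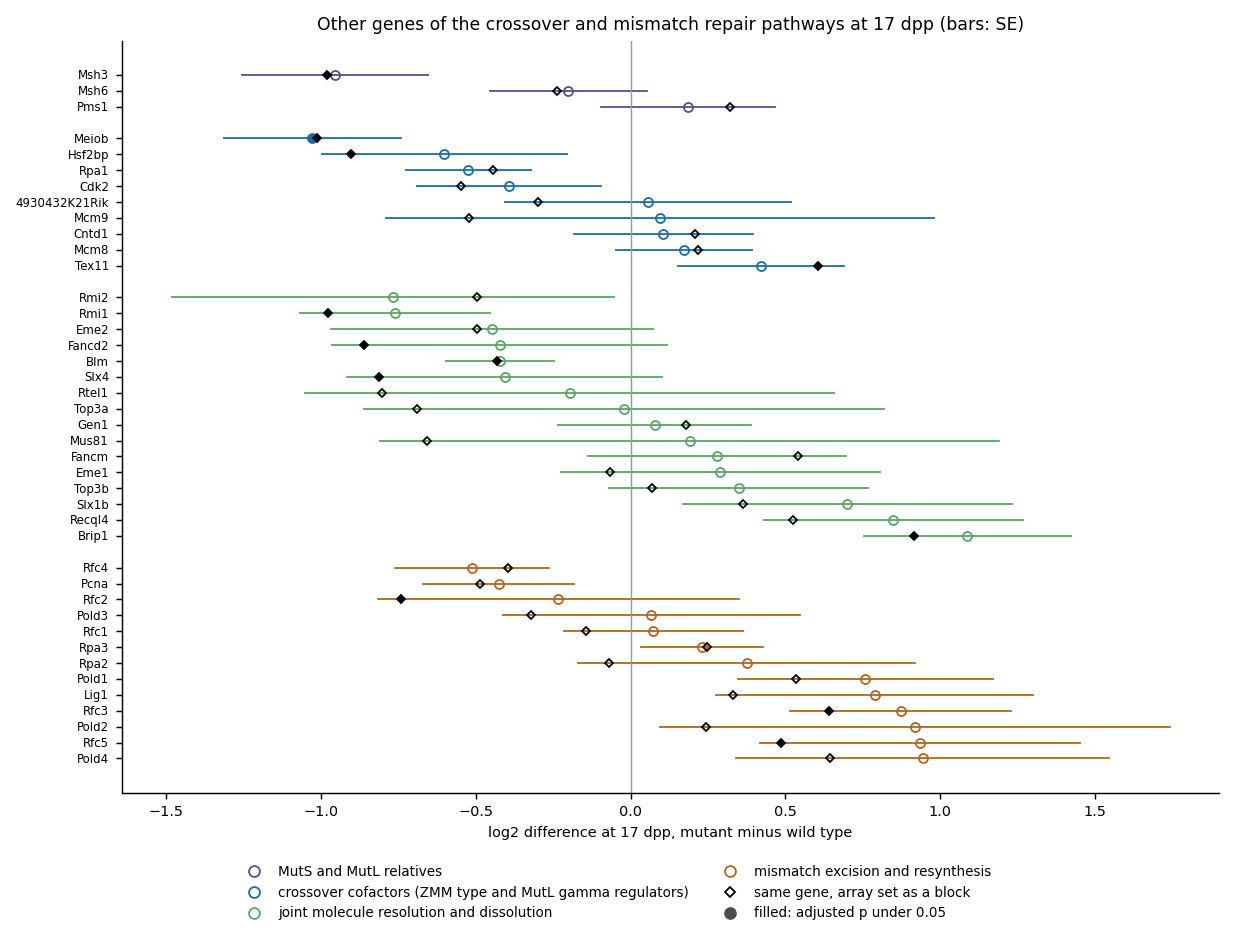
Log2 difference at 17 dpp, mutant minus wild type, of the tested genes of 4 pathway lists, with circles and bars for the difference of group means and its SE and diamonds for the value with the array set as a block. Symbols are filled where the adjusted p was under 0.05; among the circles Meiob (−1.03) is the only filled one.

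The levels of the members were read beside markers of the cell types of the testis, whose part in these results was not tested. Of 12 tested pachytene markers, 6 fell at 14 dpp and 10 at 17 dpp and none rose (median −3.66 at 17 dpp). Of all genes 0.32% were called at 14 dpp, and at 17 dpp 5.83% were lower and 2.03% higher. Their summed signal at 17 dpp ran from 75232 to 126022 on the wild-type arrays and from 5383 to 10478 on the mutant arrays. At 14 dpp the sums were 19321 to 25645 and 8409 to 9002. The median difference of the pachytene markers was thus larger than the difference of Mlh3 at 17 dpp, and the mutant sums lay apart from the wild-type sums at both ages. The list was chosen with earlier results of these data known, so its fall is no independent gauge of pachytene cells.

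The summed markers of earlier spermatocytes, from preleptotene to zygotene, overlapped in range between the genotypes at 17 dpp. They ran from 41694 to 122686 in wild type (median 114305) and from 40742 to 98246 in mutants (median 80411). The wild-type median thus lay above every mutant sum. Of these 11 markers Dmc1 and Tex15 rose and none fell by limma (median −0.55), and 7 had a negative difference. With the block 3 rose (Dmc1, Rec8 and Tex15) and 4 fell, where the block called 14.4% of all genes higher and 11.4% lower. Those that fell were Spo11 (−1.60), Hormad1 (−0.76), Sycp2 (−0.68) and Meioc (−0.60), and those that rose had 0.83, 0.86 and 0.92. None of 12 spermatogonia markers was called by limma at 17 dpp (median 0.96), while 4 (Zbtb16, Stra8, Uchl1 and Sall4) were higher with the block. Of the 3 tested probe sets of Zbtb16, 1 had the opposite sign in the group means. The sums of the 12 markers were 4126 to 13354 in wild type and 8905 to 22265 in mutants. At 14 dpp the sums were 36256 to 44157 and 34102 to 41376 for the early spermatocyte list and 19472 to 22328 and 20906 to 22608 for spermatogonia.

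Somatic lists had positive medians at 17 dpp, where the median of all genes was 0.26. Of 10 tested Sertoli markers 1 rose (Amhr2; median 0.70; sums 24316 to 32583 in wild type and 40240 to 56839 in mutants), and of 8 macrophage markers 1 rose (Csf1r; median 1.12; sums 3130 to 6248 and 5872 to 9912). With the block 5 Sertoli markers (Sox9, Amhr2, Cldn11, Dhh and Inhbb), 3 macrophage markers (Cd68, Csf1r and Adgre1) and 1 myoid marker (Acta2) were higher. The block called 14.4% of all genes higher, and 1 of 5 myoid markers is close to that share. Of the 3 tested probe sets of Sox9, 1 had the opposite sign in the group means. None of the 4 Leydig (median 1.004), 5 peritubular myoid (0.63) and 6 endothelial (0.41) markers was called by limma without the block. Their sums at 17 dpp were 1394 to 3509 in wild type and 2118 to 6658 in mutants for Leydig cells, 8351 to 16093 and 12235 to 21086 for myoid cells, and 321 to 708 and 478 to 902 for endothelium. Of 5 epididymis markers 1 was tested, with signals of 18.3 to 103 in mutants and 44.4 to 86.6 in wild type at 17 dpp, near background. At 14 dpp no marker outside the pachytene list was called by limma, and the Sertoli sums were 31084 to 34920 in wild type and 32777 to 39231 in mutants.

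For each member gene the genes whose 4 group means followed it most closely were found by the Euclidean distance between centred log2 group means. Nearest to Mlh3 were Ccer1 (distance 0.061) and Hepacam2 (0.086), with differences at 17 dpp of −1.43 and −1.41. Nearest to Msh4 were Zfp949 (0.029) and Zfp385c (0.048), and nearest to Ccnb1ip1 were Lmbr1 (0.021) and Tra2a (0.039). Msh5, by 1449537_at, had no neighbour as close as those of the other members, with Mpv17l2 at 0.12 (2.44 at 17 dpp) and Gpatch3 at 0.15 (2.66 at 17 dpp). Pip5k1a (0.043) and Ccdc166 (0.049) were nearest to Pms2, and Slc4a4 (0.019) and Ndufb7 (0.042) to Exo1. These distances rest on 4 group means from 18 arrays and carry no test.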

How the data were processed

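Total RNA of whole testes was profiled on Affymetrix mouse genome arrays. The deposited table holds 1 linear intensity (MAS5 signal) per probe set and array, made with Affymetrix GCOS per the labels and the submitters' processing notes, which give no version. No normalization between arrays is stated. The mean after trimming was 500 on the arrays of sets 1 and 2 and 394.6 to 394.9 on those of set 3.

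Of 45101 probe sets, 64 controls were left out. Of the other 45037, a single gene was given for 34945, more than 1 for 932 and no gene for 9160. Testing required a signal above the 40th percentile of the same array (49.2 to 93.4) on 3 or more arrays. The model in limma 3.58.1 (R 4.3.3) had 4 group means of log2 signal, fitted to all 18 arrays together with 14 residual degrees of freedom, moderated variances and a trend on intensity. Two-sided p-values were adjusted by Benjamini-Hochberg over the 34764 tested probe sets, and 0.05 was the threshold. Each ± is limma's standard error. Array sets were bounded at β-actin ratios of 1.9 and 10. Fits within a set kept 1 mean per group and set and shared the spread over all arrays, so a lone array was assumed to vary like the others. Ratios of probe sets of 1 gene were compared by exact permutation over arrays (scipy 1.17.1). The fit was tested on simulated data.

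All probe sets of the members were named. Genes of the lists (MutS and MutL relatives, crossover cofactors, joint molecule resolution and dissolution, mismatch excision and resynthesis, and markers of spermatogonia, preleptotene to zygotene and pachytene spermatocytes and of Sertoli, Leydig, endothelial, macrophage, peritubular myoid and epididymis cells) were named where called in a genotype contrast or, beyond that, to contrast roles. Genes passing only with the array set block were named after their values were seen. Near patterns were the 2 closest genes per member. The members and lists were chosen with earlier results of these data known.

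Correlations between arrays of a group were 0.818 to 0.956 if they shared a set and 0.615 to 0.912 if not, and no arrays were identical. Same-numbered mutant and wild-type arrays deviated together at 14 dpp (correlations 0.283, 0.355 and 0.385), where each pair shares an array set and differently numbered arrays of 1 set gave 0.288 to 0.384. At 17 dpp the correlations were −0.227 to 0.777. Promoter sequences are RefSeq's, and gene names and chromosomes come from RefSeq's table of GRCm38.p6. The build behind the array annotation is not stated.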

Additional observations from a re-analysis of the deposited data

Results flagged for a closer look

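In 33 groups of 5 arrays (a probe set in a group), 1 array lay far from the other 4 in 2 cases, and chance alone flags about 1 in 20 such groups. The signal of Msh4 in mutant replicate 5 of 14 dpp, an array of set 2, was 383, where the other 4 mutants had 580 to 633. The signal of Msh5 1430771_a_at in wild-type replicate 4 of 17 dpp, an array of set 3, was 11.2, where the other 4 wild-type arrays had 106 to 186. It was also low in mutant replicates 3 and 4 of 17 dpp (25.1 and 21.8). With wild-type replicate 4 (7.29) these had the lowest GAPDH ratios of set 3 (9.59 and 5.24), so the low value was not confined to 1 array. The first case touches a difference that did not pass with or without the array set block, and the second enters the ratio of the Msh5 probe sets at 17 dpp.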

How the results depend on the processing

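No called difference reversed in any alternative run. Among the 10 probe sets, 3 differed by genotype at 17 dpp. This count was 6 with the array set as a block, 6 within set 3, 5 with the block and a common median together (an alternative chosen after seeing the data), 1 within set 1, 0 without set 3 by limma, 1 on a common median, 1 with only the arrays of 17 dpp and 1 with unmoderated variances at the threshold of 0.025. Leaving out 1 array at a time gave 1 to 4. At 14 dpp the count of 0 became 2 with array weights and stayed 0 when any array was left out. Of the 4 changes with age in wild type, 0 passed within set 1 and 0 without set 3, and 1 to 4 passed with 1 array left out. In mutants the count of 0 was 1 with the block, 1 with the block and a common median, 1 after quantile normalization, 3 with array weights and 0 to 1 with 1 array left out. The change of the genotype difference was 0 throughout. With the replicate number as a block the counts were 3 at 17 dpp, 0 at 14 dpp, 4 with age in wild type and 0 in mutants. For many of these alternatives, such as array weights, a common median and left-out arrays, no share of all tested probe sets is given. Their counts can therefore not be told from a change over the whole array. No pair of probe sets passed under any setting of the ratio test, the replicate block and left-out arrays included. However, a lone pair at the smallest p of the main test (0.00794) would not pass after adjustment over the 10 tests. In the replicate block, 5 pairs of arrays allow no exact p under 0.0625, and 3 pairs allow none so low. The lack of a call therefore does not show that the probe sets agree. For single probe sets, 53 calls were lost and 23 gained over all settings, and the cause was not tested. Within sets 2 and 3 no change with age could be fitted, since each holds 1 age. Signals below the 40th percentile, such as Msh5 1449537_at on 4 wild-type arrays, limit the precision of folds.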
